A study of Mus musculus with 96 samples.

Results

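The azurophilic granule genes Mpo, Elane, Prtn3 and Ctsg were followed cell by cell in leukemic spleens, with the 6 genes that process, accompany or restrain their products: Ctsc, Ms4a3, Serpinb1a, Cst7, Nkg7 and Srgn. These 10 genes were chosen by name, were all found among 23955 gene symbols, and all passed a filter of 1 TPM in at least 5 cells of each mouse. TPM is transcript abundance corrected for transcript length and scaled to the same total in every cell. The cells were 96 splenocytes enriched with CD117 (c-Kit) beads, 48 from each of 2 moribund mice with acute myeloid leukemia. Both mice had the genotype Flt3ITD/ITD;Dnmt3afl/- MxCre: an internal tandem duplication in both copies of the receptor gene Flt3, 1 floxed and 1 null copy of the DNA methyltransferase gene Dnmt3a, and Cre under the interferon-responsive Mx promoter. The ages of the mice were not given in the labels, and cells of another genotype were not analysed here.

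Azurophilic, or primary, granules are the earliest granules that a neutrophil precursor makes, and their proteins are made for a short stretch of development around the promyelocyte and then only stored. Myeloperoxidase (Mpo) is a haem enzyme that makes hypochlorous acid, and neutrophil elastase (Elane), proteinase 3 (Prtn3) and cathepsin G (Ctsg) are serine proteases. The proteases are made as inactive precursors, and cathepsin C (Ctsc) trims them to active enzymes. Serglycin (Srgn) is the proteoglycan core that packs basic proteases into granules. Serpinb1a encodes a cytosolic inhibitor of these proteases, and Cst7 encodes cystatin F, an inhibitor of cysteine cathepsins that include cathepsin C. Ms4a3 is a membrane protein of granulocyte-monocyte progenitors. Nkg7 is a granule membrane protein best known from natural killer and T cells.

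Every cell was placed in 1 of 3 states by a pair of genes outside the set. Class II-high cells had the antigen presentation gene H2-Aa at 1000 TPM or more, neutrophil granule-high cells had the calprotectin gene S100a8 at 1000 TPM or more, and rest cells had neither. No cell had both (0 cells). Mouse 1 held 33 rest, 14 class II-high and 1 neutrophil granule-high cell, and mouse 2 held 18, 20 and 10. The levels of 8 markers of type 1 dendritic cells that are not class II genes, Xcr1 and Clec9a among them, were summed. This sum ran from 4263 to 13455 TPM in the class II-high cells of mouse 1 and from 3587 to 12553 TPM in those of mouse 2. It was at most 1937 and 819 TPM in rest cells and 659 TPM in neutrophil granule-high cells. Of the 1937 TPM, 1913 TPM were Irf8 in cell 41, which had Xcr1 at 0.7 and Clec9a at 0 TPM. Kit, whose product the beads select, reached 100 TPM in 14 of 33 and 4 of 18 rest cells and in 5 of 14 and 5 of 20 class II-high cells. It did so in the 1 neutrophil granule-high cell of mouse 1 and in 1 of 10 of mouse 2. Most cells of both mice therefore lacked it at this level. Dnmt3a had a median under 1 TPM in every state, and without control cells this checks nothing. Genes at 1 TPM or more, which stand in for the unknown read depth, had a median of 3980 and 4067 per rest cell in mouse 1 and mouse 2, 2922 and 2581 per class II-high cell, and 2821 per neutrophil granule-high cell of mouse 2. Each mouse was 1 capture round, so mouse and round cannot be told apart. With 1 mouse a side and cells that are not replicates, no test was possible: values, ranges and exact (Clopper-Pearson) 95% intervals are given, and the intervals cover the counting of cells only.

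The 4 core genes lie on 3 chromosomes. In GRCm38 coordinates, Mpo lies on chromosome 11 from 87793581 to 87804413, and Ctsg on chromosome 14 from 56099881 to 56102574 on the minus strand. Prtn3 and Elane are neighbours on chromosome 10, from 79874476 to 79883174 and from 79886247 to 79888215. Of the partners, Ctsc (88278085 to 88310888) and Nkg7 (43437073 to 43438249) lie on chromosome 7, Srgn (62493833 to 62527451) on chromosome 10, Ms4a3 (11629496 to 11640851) on chromosome 19, Serpinb1a (32842092 to 32851185) on chromosome 13 and Cst7 (150570415 to 150578944) on chromosome 2. The core genes were high in the same cells although only Prtn3 and Elane lie side by side. The sequence before the RefSeq start of each is shown, and its part in the shared expression was not tested. Each runs 5′ to 3′ on the gene's strand, from 250 bases before the RefSeq start (GRCm38.p6) to the last base before an annotated exon; capitals mark GAGGAA, letters that the myeloid factor PU.1 can bind. The windows are chr11:87793534-87793580 (plus strand, Mpo), chr10:79886062-79886246 (plus, Elane), chr10:79879417-79879613 (plus, Prtn3) and chr14:56102575-56102824 (minus, Ctsg). The gene spans above are from GENCODE, whose starts can differ from those of RefSeq. The Prtn3 window lies inside the GENCODE span of Prtn3, and the Mpo and Elane windows end just before the GENCODE starts.
Mpo: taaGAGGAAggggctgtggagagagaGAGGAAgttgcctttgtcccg
Elane: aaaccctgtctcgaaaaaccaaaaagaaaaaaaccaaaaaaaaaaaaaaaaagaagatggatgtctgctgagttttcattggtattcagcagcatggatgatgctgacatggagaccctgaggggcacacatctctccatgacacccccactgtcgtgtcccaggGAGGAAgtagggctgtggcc
Prtn3: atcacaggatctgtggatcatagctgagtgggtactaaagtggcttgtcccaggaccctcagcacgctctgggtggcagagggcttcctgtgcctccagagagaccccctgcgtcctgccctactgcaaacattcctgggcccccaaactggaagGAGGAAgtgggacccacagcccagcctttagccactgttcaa
Ctsg: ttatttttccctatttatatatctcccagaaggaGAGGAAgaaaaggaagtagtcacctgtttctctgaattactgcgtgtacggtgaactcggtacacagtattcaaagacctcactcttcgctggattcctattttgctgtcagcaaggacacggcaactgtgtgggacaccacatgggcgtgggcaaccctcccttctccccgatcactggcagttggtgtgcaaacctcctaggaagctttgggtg

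GAGGAA occurred in all 4 of these windows, with the first base at -247 and -224 from the RefSeq start of Mpo, -85 from that of Elane, -95 from that of Prtn3 and -216 from that of Ctsg. Over the full 250-base windows, 5 of the 9 members with a promoter in the table held it, against 23.3% of 32851 promoter windows. The fifth was Ctsc, with 2 matches on the opposite strand. A RUNX letter group, TGTGGT, occurred in 4 of 9 members against 14% of windows. A C/EBP group, TTNCNNAA, occurred in 3 of 9 (Ms4a3, Cst7 and Srgn) against 36.8% of windows. A MYB group, AACNG, occurred in 8 of 9, Mpo, Elane, Prtn3 and Ctsg among them, against 74.2%. All were searched on both strands. Members are counted per gene and Srgn has 2 windows, of which 1 held its C/EBP and RUNX matches, whereas the background is per window. Such matches describe letters and are not binding sites, and the kinds of match can overlap.

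Among rest cells, Srgn, Nkg7 and Serpinb1a were present in most cells of both mice, and Ms4a3 and Elane in the fewest. A cell was counted as having a gene at 100 TPM or more, a level set above a low background described further on. In mouse 1, Nkg7 and Srgn each reached it in 32 of 33 rest cells (97.0%, interval 84.2 to 99.9%), Serpinb1a in 28, Mpo and Ctsg in 23 each (69.7%, 51.3 to 84.4%), Cst7 in 22, Prtn3 in 21, Ctsc in 12, Ms4a3 in 10 and Elane in 9 (27.3%, 13.3 to 45.5%). In mouse 2, Srgn reached it in 18 of 18, Prtn3 in 16, Ctsg, Nkg7 and Serpinb1a in 15 each, Mpo in 13 (72.2%, 46.5 to 90.3%), Ctsc in 11, Cst7 in 10, Ms4a3 in 9 and Elane in 8 (44.4%, 21.5 to 69.2%). The last 2 places went to Ms4a3 and Elane in both mice. Each gene's interval overlapped that of its neighbour in the order in both mice, so the order of neighbouring genes is not resolved at this number of cells.

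The plot of all 10 genes over all 96 cells shows the order within each state.

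**Figure D1:**
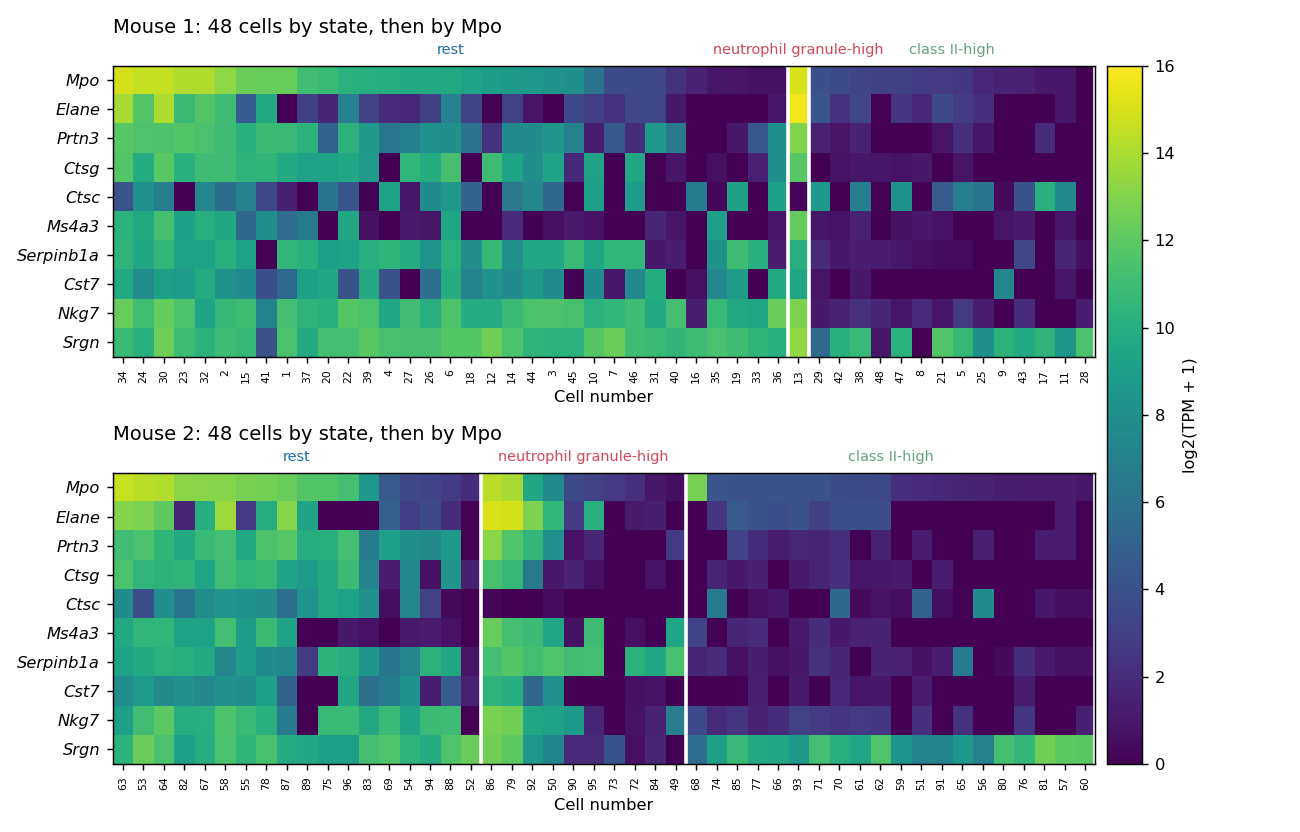
Heat map of log2(TPM + 1) for the 10 genes (rows) in the 48 cells of each mouse (columns, labelled by cell number), arranged by state and then by falling Mpo. Elane and Ms4a3 are high towards the Mpo-high end of the rest cells, Nkg7 and Srgn are high in nearly all rest cells, and Ctsc is under 1 TPM in all 11 neutrophil granule-high cells.

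Levels spanned orders of magnitude for the granule enzymes and less for Srgn. Mpo in rest cells ran from 0.63 to 32576 TPM with a median of 838 in mouse 1, and from 3.09 to 26342 TPM with a median of 4128 in mouse 2. Elane ran from 0 to 16769 TPM with a median of 7.24, and from 0 to 12956 TPM with a median of 19.9. Srgn ran from 14.5 to 5999 TPM with a median of 2101, and from 519 to 5203 TPM with a median of 1384. Thus the median rest cell had Mpo and Srgn above 100 TPM and Elane below it in both mice. Prtn3 ran from 0 to 3676 TPM with a median of 260 in mouse 1 and from 0 to 3633 TPM with a median of 1022 in mouse 2, and Ctsg from 0 to 3755 with a median of 623 and from 0.65 to 2791 with a median of 777. Ms4a3 had medians of 1.19 and 237 TPM, the largest relative gap between the mice among the 10 medians. The inhibitor gene Serpinb1a had medians of 751 and 538 TPM with a highest value of 2082 TPM in mouse 1, and Nkg7 had medians of 1858 and 1442 TPM. Ranges of all 10 genes overlapped between the mice. Ctsc, the activating protease, never reached 1000 TPM in a rest cell, with highest values of 586 and 859 TPM, and the same held for Cst7, with 955 and 778 TPM.

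The proteases were nested. All 9 Elane cells among the rest cells of mouse 1 and all 8 in mouse 2 also had Mpo, Prtn3 and Ctsg. A further 9 and 4 rest cells had Mpo, Prtn3 and Ctsg without Elane. Prtn3 or Ctsg occurred without Mpo in 4 rest cells of each mouse. Those 4 cells of mouse 1 had Mpo at 0.63 to 67.3 TPM: cell 10 and cell 46 had Ctsg at 587 and 751 TPM with Prtn3 under 4 TPM, cell 31 had Prtn3 at 402 TPM with Ctsg at 0, and cell 36 had both. Ctsc was at 460 to 570 TPM in cells 10, 36 and 46. In mouse 2 all 4 had Prtn3, at 199 to 515 TPM, and cells 54 and 88 had Ctsg as well. Mpo was therefore missing from some cells with Prtn3 or Ctsg, while Elane was not seen without the other 3 in any rest cell. None of the 4 genes was present in 6 rest cells of mouse 1 and 1 of mouse 2. A single time point was sampled, so these counts give nesting and no measured time.

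Of all cells with Elane, Prtn3 or Ctsg, Mpo was present in 22 of 26 in mouse 1 (84.6%, 65.1 to 95.6%) and in 17 of 22 in mouse 2 (77.3%, 54.6 to 92.2%). Of cells with Mpo, 22 of 24 and 17 of 18 had at least 1 of the serine proteases. Ms4a3 and Elane were mostly present in the same cells: 10 of 10 Elane cells in mouse 1 and 12 of 13 in mouse 2 had Ms4a3, and 10 of 11 and 12 of 15 Ms4a3 cells had Elane. The inhibitor gene Serpinb1a was present in 23 of 26 and 20 of 22 cells with a serine protease. Among rest cells without a serine protease it was present in 6 of 8 in mouse 1, and mouse 2 had 1 such cell, without it. The activator gene Ctsc was present in 10 of 26 and 11 of 22 serine protease cells, so most such cells of mouse 1 held protease transcripts with Ctsc under 100 TPM.

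Arranged by their level of Mpo, the rest cells showed which genes were high where Mpo was low. The groups were under 100 TPM (10 cells in mouse 1 and 5 in mouse 2), 100 to 1000 TPM (10 cells and 1 cell) and 1000 TPM or more (13 and 12 cells). Elane was present in 0 of 10, 1 of 10 and 8 of 13 cells in mouse 1, and in 0 of 5, 0 of 1 and 8 of 12 in mouse 2. The intervals for 0 of 10 and 0 of 5 reach 30.8% and 52.2%. Ms4a3 followed the same steps, with 1 of 10, 1 of 10 and 8 of 13 cells in mouse 1 and 0 of 5, 0 of 1 and 9 of 12 in mouse 2.

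Prtn3 and Ctsg stood between. In mouse 1 Prtn3 was present in 2 of 10, 7 of 10 and 12 of 13 cells, and Ctsg in 3 of 10, 7 of 10 and 13 of 13. In mouse 2 Prtn3 was present in 4 of 5 Mpo-low cells and in 12 of 12 Mpo-high cells, though at a median of 250 against 1972 TPM. Srgn, Nkg7 and Serpinb1a were present in most Mpo-low cells. There Srgn was present in 10 of 10 and 5 of 5 cells, Nkg7 in 9 of 10 and 4 of 5, and Serpinb1a in 6 of 10 and 3 of 5. The other partners were present in fewer Mpo-low cells of mouse 2: Cst7 in 6 of 10 and 1 of 5, Ctsc in 4 of 10 and 1 of 5, and Ms4a3 in 1 of 10 and 0 of 5. Nkg7 had a median of 1383 TPM in the Mpo-low and 2159 TPM in the Mpo-high cells of mouse 1, and 1841 and 1442 TPM in mouse 2.

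Ctsc differed between the mice in this order. It was present in 4 of 10, 4 of 10 and 4 of 13 cells across the ranges in mouse 1, and in 1 of 5, 1 of 1 and 9 of 12 in mouse 2. The intervals for the Mpo-high cells were 9.09 to 61.4% in mouse 1 and 42.8 to 94.5% in mouse 2, which overlap, and the difference between mice has no replicate check. The cut at 1000 TPM ran through a continuum in mouse 1, where 9 rest cells had Mpo between 500 and 2000 TPM, and through a gap in mouse 2, where 0 did. Detected genes moved with the split in mouse 1, with a median of 3543 in Mpo-low and 4463 in Mpo-high cells, and less in mouse 2, with 3939 and 4041; their part in the result was not tested.

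**Figure D2:**
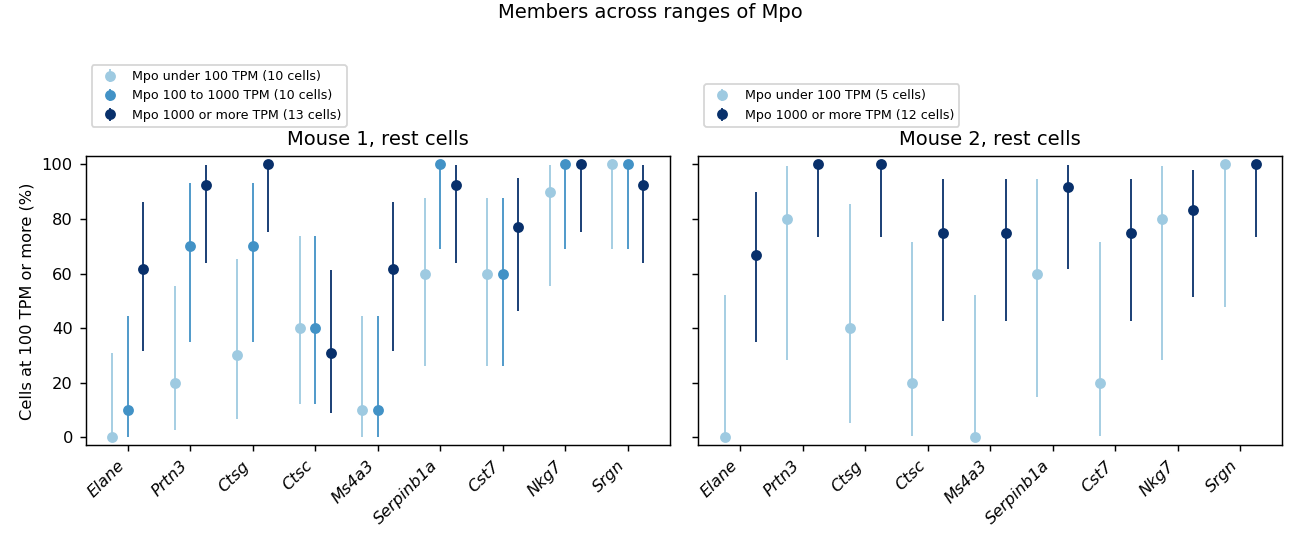
Percent of rest cells with each gene at 100 TPM or more (y axis), by range of Mpo (shades), in mouse 1 (left) and mouse 2 (right, where the range holding 1 cell is left out); points are shares and bars are exact 95% intervals. Elane and Ms4a3 are at or under 10% until Mpo reaches 1000 TPM, while Nkg7 and Srgn are at 80% or more in every range.

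As means of log2(TPM + 1), 7 genes of the set in mouse 1 and 8 in mouse 2 were higher by 1 or more in cells with Mpo at 1000 TPM or more than in the other rest cells, Mpo included, whose own level made the split. Of all 8008 genes that passed the filter, 27.6% and 26.5% were higher by as much. No gene of the set was lower by 1 or more (0 in each mouse), beside 6.67% and 17.1% of all genes. The median over the 10 genes was 3.73 in mouse 1 and 4.22 in mouse 2, against 0.36 and 0.23 over all genes. This median also includes Mpo, at 6.94 and 8.80, so part of it was set by the split itself. Elane was higher by 5.93 and 5.94, Ms4a3 by 5.96 and 6.90, Ctsg by 5.20 and 5.89, and Prtn3 by 5.14 and 4.09. Cst7 was higher by 2.32 and 1.99 and Serpinb1a by 1.10 and 1.53. Nkg7 differed by 0.61 and 0.83 and Srgn by -0.67 and -0.86. Ctsc was the 1 gene of the set whose difference had opposite signs in the mice, at -0.49 in mouse 1 and 4.36 in mouse 2.

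The 4 core genes were correlated across cells. Their mean pairwise Spearman correlation was 0.71 over 48 cells of mouse 1 and 0.72 over 48 cells of mouse 2, and 0.69 and 0.64 over the 33 and 18 rest cells alone. These are descriptions over cells that share a library preparation, with no p-value. Over all 45 pairs of the set the mean was 0.39 and 0.51, so the core stood above its partners. The closest pair in rest cells of mouse 1 was Mpo with Prtn3 (0.80), and in mouse 2 Mpo with Ctsg (0.75). Elane's closest partner in rest cells of both mice was Ms4a3, at 0.71 and 0.74.

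Over rest cells, Ms4a3 was the partner closest to the core, and Srgn had the lowest mean correlation with it in both mice. Over all cells this differed: Ctsc was lowest in mouse 1, at 0.01 against 0.23 for Srgn. In mouse 2 Nkg7, at 0.670, was as close as Ms4a3, at 0.666. In rest cells, the mean correlation of Ctsc with the 4 core genes was 0.02 in mouse 1 and 0.29 in mouse 2, and that of Srgn was -0.09 and -0.04. Serpinb1a had 0.06 and 0.16, Nkg7 0.31 and 0.20, and Cst7 0.32 and 0.47. Ms4a3, at 0.70 and 0.71, was as close to the core as the core genes were to each other. Correlation with the number of detected genes was 0.57 for Mpo in rest cells of mouse 1 and 0.30 in mouse 2, and -0.09 and -0.16 for Srgn.

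**Figure D3:**
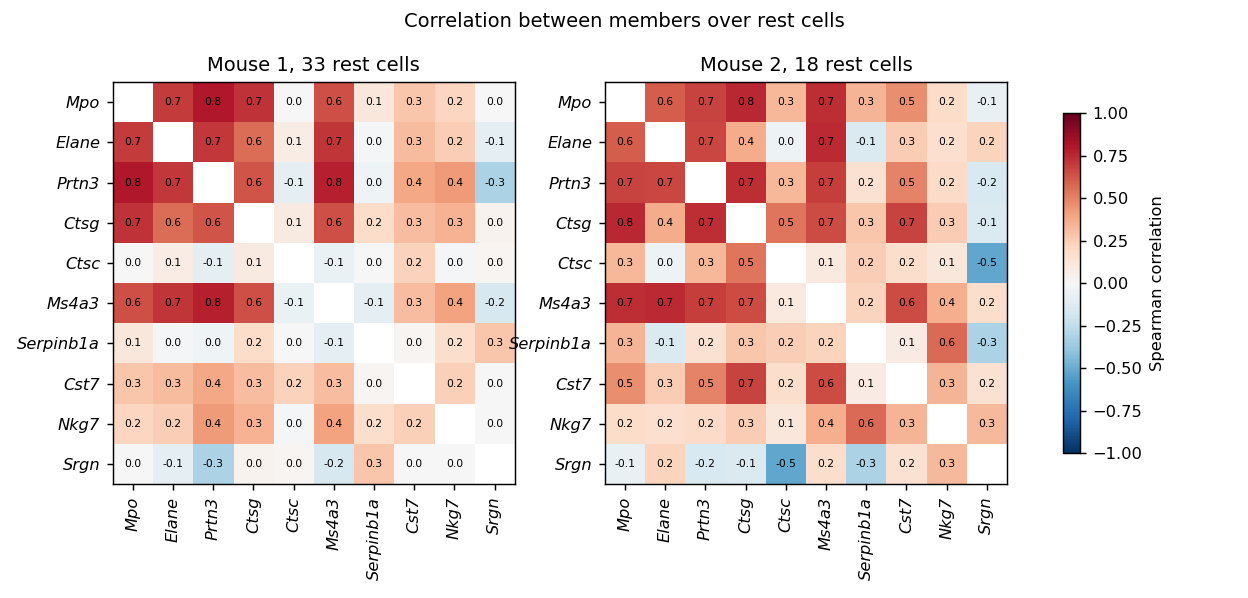
Spearman correlation between each pair of the 10 genes over the 33 rest cells of mouse 1 (left) and the 18 rest cells of mouse 2 (right); colour and printed value give the correlation and the diagonal is blank. Mpo, Elane, Prtn3, Ctsg and Ms4a3 form a block of high values, and the row of Srgn is near or below 0 with most genes.

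In neutrophil granule-high cells the set was split. Mouse 2 had 10 such cells and mouse 1 had 1, so mouse 2 carries the comparison. Serpinb1a was present in 9 of the 10 and Ms4a3 in 6, Elane in 5, Mpo and Prtn3 in 4 each, and Ctsg in 2, while Ctsc was present in 0. As means of log2(TPM + 1) against rest cells of the same mouse, Ms4a3 was higher by 1.30 and Serpinb1a by 1.81, and 7 genes were lower by 1 or more. Among all genes tested, 7.33% were higher and 47% were lower by as much. The median over the set was -3.45, against -0.91 over all genes. Elane, at 0.68, crossed neither limit.

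Elane exceeded Mpo in these cells. Among cells with either gene at 100 TPM, Elane was above Mpo in 5 of 5 neutrophil granule-high cells of mouse 2 (47.8 to 100%) and in the 1 of mouse 1. In rest cells this held in 0 of 23 in mouse 1 (0 to 14.8%) and in 2 of 13 in mouse 2 (1.92 to 45.4%), cells 58 and 87. Cell 86 had Mpo at 20561 and Elane at 34086 TPM, cell 79 had 15088 and 32318, cell 92 had 776 and 7429, cell 50 had 194 and 1543, and cell 95 had 7.68 and 1099 TPM. Elane was above 1000 TPM in all 5, while Mpo was in 2 of them. TPM is corrected for transcript length, which a comparison between genes needs. Other differences in how the 2 genes are measured were not tested.

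**Figure D4:**
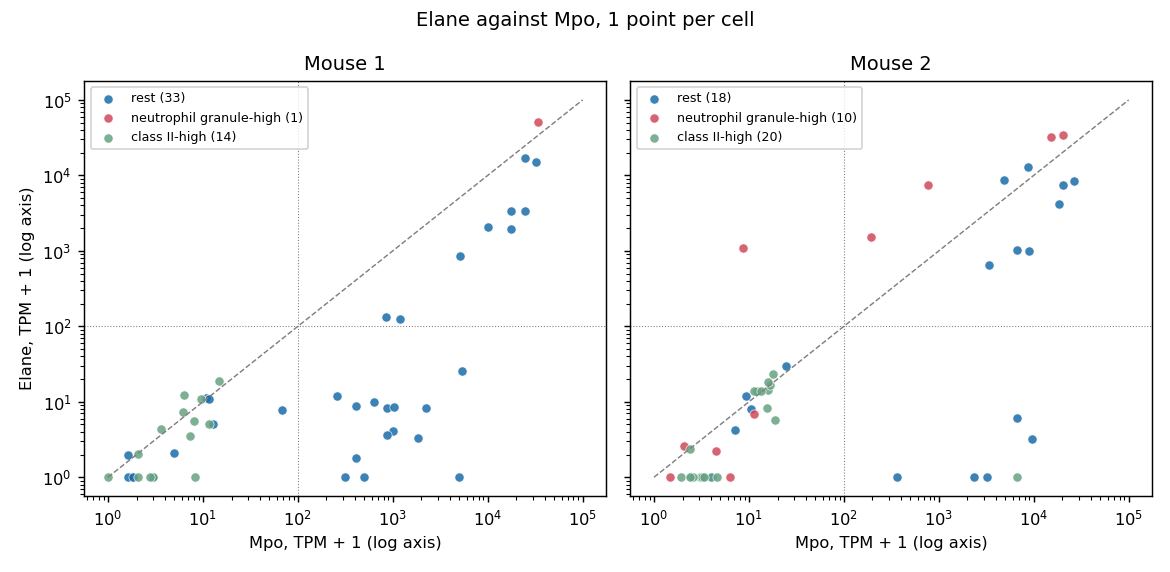
Elane against Mpo, both as TPM + 1 on log axes, with 1 point per cell in mouse 1 (left) and mouse 2 (right); colours give the state, the dashed line marks equal levels and dotted lines mark 100 TPM. Neutrophil granule-high cells with either gene lie above the dashed line, most rest cells lie below it, and class II-high cells cluster under 25 TPM apart from 1 cell at 6730 TPM of Mpo.

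The neutrophil granule-high cells of mouse 2 differed among themselves along the lactoferrin gene Ltf, a marker of the later, specific granules. In the 7 cells with Ltf at 1000 TPM or more, Mpo ran from 0.48 to 776 TPM with a median of 7.68. The other 3 had Mpo at 5.39, 15088 and 20561 TPM. Ctsg reached 100 TPM in 0 of the 7 and in 2 of the 3. Serpinb1a was present in all 7, at 772 to 3152 TPM, and Ms4a3 in 4 of 7. Srgn, nearly universal in rest cells, was present in 2 of the 7, with a median of 2.89 TPM. Elane was present in 3 of the 7, up to 7429 TPM. Serpinb1a was as high in cells 86 and 79, where Ltf was under 10 TPM, at 2430 and 3532 TPM. Detected genes numbered 3816 and 4148 in cells 86 and 79 and 1768 to 3897 in the 7, and S100a8, S100a9, Ngp and Camp together took 31.3 to 47.6% of TPM there against 3.56 and 17.8%; their part in the differences was not tested.

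Ctsc was under 1 TPM in all 11 neutrophil granule-high cells, including the 1 with the highest Mpo and Elane of all 96 cells. Cell 13 of mouse 1 had Mpo at 34099, Elane at 51242, Prtn3 at 8040 and Ctsg at 3710 TPM, and Ctsc at 0.23 TPM. Cells 86 and 79 had Ctsc at 0.24 and 0 TPM. In mouse 2 alone, the exact interval for 0 of 10 reaches 30.8%. In rest cells Ctsc was present in 12 of 33 in mouse 1 (36.4%, 20.4 to 54.9%) and 11 of 18 in mouse 2 (61.1%, 35.7 to 82.7%). The 10 genes together held 12.1% of all TPM in cell 13 and 8.81% in cell 86, against a median of 0.797% and 1.25% in the rest cells of mouse 1 and mouse 2.

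Cell 13 met the neutrophil rule at 1251 TPM of S100a8 with S100a9 at 0, Ltf at 0.62 and Ngp at 1.02 TPM, and with Camp at 325 TPM, so it lay close to the threshold of the state. Cell 73 of mouse 2 had S100a8 at 201252 TPM together with the class II gene Cd74 at 4513, Clec9a at 181 and Xcr1 at 112 TPM, and every gene of the set at or under 15.5 TPM. It was the only neutrophil granule-high cell with Serpinb1a under 100 TPM. Without cell 73 the median difference over the set was -2.92.

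In class II-high cells most of the set lay under 100 TPM. Elane, Prtn3, Ctsg, Ms4a3, Serpinb1a and Nkg7 reached 100 TPM in 0 of 14 cells of mouse 1 and 0 of 20 of mouse 2. The exact intervals for these counts reach 23.2% and 16.8%. The highest values were 22.7 TPM for Elane, 8.30 for Prtn3, 3.50 for Ctsg, 11.2 for Nkg7 and 96.6 for Serpinb1a. Of the 10 genes, 9 were lower than in rest cells by 1 or more on the log2(TPM + 1) scale in each mouse, beside 43.9% of all genes in mouse 1 and 51.7% in mouse 2. None was higher by as much (0), beside 8.57% and 6.62% of all genes. The median over the set was -6.00 and -6.14, against -0.83 and -1.05 over all genes. After a linear fit on detected genes it was -1.77 and -1.62, and in the deposited RPKM table -0.50 and -0.45. Nkg7 differed most in mouse 1, at -9.17, and Prtn3 in mouse 2, at -8.42.

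Srgn and Ctsc were the exceptions. Srgn was present in 11 of 14 class II-high cells of mouse 1 and 19 of 20 of mouse 2, with medians of 1169 and 799 TPM, and differed from rest cells by -2.42 and -0.996. Ctsc was present in 6 of 14 in mouse 1, up to 1154 TPM, the highest Ctsc value of all 96 cells, and in 1 of 20 in mouse 2. Its difference from rest cells was 0.05 in mouse 1 and -4.60 in mouse 2. Cst7 reached 100 TPM in cell 9 of mouse 1 alone, at 173 TPM.

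Cell 68 of mouse 2 was the single class II-high cell with Mpo, at 6730 TPM. Its H2-Aa was 6732 TPM, with Xcr1 at 573 and Clec9a at 470 TPM, and its Elane, Prtn3 and Ctsg were at 0. Mpo at this level without Prtn3 and Ctsg was seen in no rest cell at 1000 TPM or more of Mpo in mouse 2, where all 12 had both. The cell had 2511 detected genes. No doublet caller was run, and whether it held 1 cell was not tested.

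A low level of Mpo and Elane in class II-high cells followed the cell numbering. When cells were placed by the remainder of their number divided by 8, Elane in class II-high cells was 0 to 3.42 TPM at the 4 remainders where mean Elane over all cells was lowest (19 cells) and 4.13 to 22.7 TPM at the other 4 (15 cells), with no overlap. By the same rule Mpo did not separate. Apart from cell 68, it was 0 to 12.4 TPM at remainders 1, 3, 4 and 6, where its mean was lowest. At the other remainders it was 1.55 to 17.7 TPM. Grouped instead by its own class II-high values, Mpo was 7.02 TPM or more at remainders 2, 6 and 7. It was then at most 3.57 TPM at 1, 3 and 4, with remainders 0 and 5 left out. Prtn3 and Ctsg stayed at or under 8.30 TPM at all remainders. The Elane pattern held across both mice. Values under about 25 TPM of the most abundant genes are therefore not counted as presence here, and the cause was not tested. They still enter the correlations and the means of log2(TPM + 1). With values under 100 TPM set to 0, the mean correlation of the 4 core genes over all cells was 0.77 in each mouse. The rest cells alone were not recomputed in this way.

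**Figure D5:**
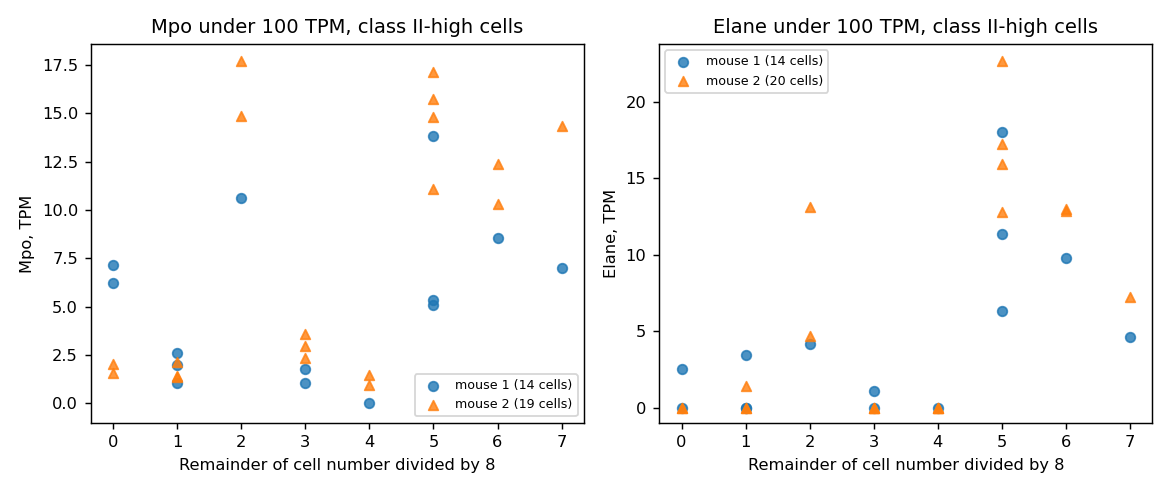
Mpo (left) and Elane (right) in TPM in class II-high cells under 100 TPM, against the remainder of the cell number divided by 8; circles are mouse 1 and triangles mouse 2. Elane is at most 3.42 TPM at remainders 0, 1, 3 and 4 and at least 4.13 TPM at the others, in both mice.

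Between the mice over all cells, 0 genes of the set were higher and 5 were lower in mouse 2 by 1 or more, beside 1.85% and 15.3% of all genes. Nkg7 differed by -2.34, Cst7 by -1.74, Ctsc by -1.46, Srgn by -1.18 and Ctsg by -1.17. The median over the set was -0.87, against -0.28 over all genes, and was -0.06 in the RPKM table. Mouse 2 had fewer rest cells, and over rest cells alone the direction turned: the median was 1.35, 6 genes were higher and 1 lower, beside 10.3% and 8.25% of all genes. Prtn3 was then higher by 2.09 and Elane by 1.92, while Nkg7 was lower, at -1.28. These are differences between 2 animals, with no replicate check.

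The cells with high Mpo were compared with the other rest cells over genes that serve granule protein production, taken from lists that were set with earlier results of these data known. Of 10 genes for folding in the endoplasmic reticulum, 7 in mouse 1 and 8 in mouse 2 were higher by 1 or more in Mpo-high than in other rest cells and 0 were lower, with medians of 1.37 and 2.73. Over all genes, as given above, 27.6% and 26.5% were higher and 6.67% and 17.1% lower, with medians of 0.36 and 0.23, and the counts of this and the next lists stand beside those shares. Mean Hspa5, the main chaperone there, was 925 against 295 TPM in mouse 1 and 719 against 98.5 TPM in mouse 2. P4hb, a disulphide isomerase, was 723 against 265 and 570 against 39.7 TPM. Calr, the chaperone calreticulin, which binds the Mpo precursor, was 1093 against 522 and 840 against 222 TPM.

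Of the haem synthesis genes, Alas1, the rate-limiting enzyme of the pathway, was higher by 2.46 and 5.54. In all, 3 and 2 of 8 genes of this list were higher by 1 or more while 0 and 2 were lower, shares near those over all genes for the higher calls. Median differences over this list were 0.49 and -0.75. Of 11 genes for sorting to granules, 3 were higher in each mouse, led by Ap3s1, a subunit of the AP-3 adaptor, at 4.10 and 4.42, and 0 and 1 were lower, so that the share of higher genes was that over all genes. Of 5 NADPH oxidase genes that passed the filter, 1 and 4 were higher, among them Ncf1 at 2.23 and 3.13. Granule and lysosome partners were higher in 7 of 15 in each mouse, with 0 and 1 lower. Lyz2, lysozyme, differed by 3.46 and 2.98, and Mcpt8, a serine protease gene next to Ctsg, by 2.34 and 4.82.

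Other protease inhibitors did not move as 1 group. Of 6 that passed the filter, 3 were higher in each mouse, and 1 and 3 were lower. Slpi, an inhibitor of elastase and cathepsin G, was at 134 against 0.067 TPM in mouse 1 and 192 against 0 TPM in mouse 2. Serpina3g differed by 0.14 in mouse 1 and -4.02 in mouse 2. Of 7 genes for cathepsins and their activation, 4 and 5 were higher, including Ctsz at 3.69 and 2.02, and 0 and 1 were lower.

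Of 10 surface genes of granulocyte-monocyte progenitors, 6 were higher in each mouse and 0 lower, among them the lectin Clec12a at 4.39 and 6.76 and the receptor gene Csf1r at 3.63 and 2.58. Of 9 stem and early progenitor genes, 4 and 3 were lower, where 6.67% and 17.1% of all genes were. These included Mycn at -3.22 and -4.75, Angpt1 at -3.53 and -1.76 and Gata2 at -1.88 and -3.45. In mouse 1, 2 genes of this list were higher, Cd34 and Ifitm1, and in mouse 2 there were 0. Of all genes, 27.6% and 26.5% were higher. Among 11 transcription factors, 5 and 3 were higher and 1 and 4 lower, with the 3 of mouse 2 near the 26.5% of all genes. Irf8, a factor of monocyte and dendritic cell development, averaged 234 against 1.87 TPM and 147 against 3.37 TPM. In mouse 1 a large part of that mean came from cell 41, at 1913 TPM. Proliferation genes were higher in 5 and 3 of 8 and lower in 0 and 2, beside the same shares of all genes. Markers of monocytes moved with the split: 5 of 9 reached 100 TPM in some Mpo-high rest cell of each mouse against 0 and 1 of 9 in the other rest cells, and their summed level ran from 0 to 9566 and 1.11 to 15261 TPM against 0 to 47.4 and 0 to 125 TPM, with Cx3cr1, Fcgr1 and C1qa under 100 TPM throughout. Their part in the result was not tested.

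The genes most like Mpo over rest cells of both mice, by the lower of their Spearman correlations in the 2 mice, were Ccl9 (0.72 and 0.84), Rin3 (0.75 and 0.71) and B4galnt1 (0.67 and 0.74), followed by Clec12a, Anxa3, Calr, Hp, Fcgr2b, Tyrobp, Ly6c2, Cd53 and Cebpa. Ccl9 encodes a chemokine. Ly6c2, a surface antigen of monocytes and their precursors, averaged 1469 against 1.81 TPM in Mpo-high and other rest cells of mouse 1 and 2664 against 2.71 TPM in mouse 2. The least like were Gatad1, Gpr56, Rpl15, Car2, Rps18 and Angpt1; Gpr56, an adhesion receptor of early progenitors, had -0.49 and -0.61. Over all 48 cells of each mouse the most like Mpo was Rab44, at 0.74 and 0.66. These ranks were taken over 5357 genes in rest cells and 5358 in all cells.

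Chromosomal neighbours did not share the pattern as a block. Beside Prtn3 and Elane, Cfd and Misp were at 0 TPM in all rest cells, and Ptbp1, a splicing factor gene, was present in 19 of 33 and 10 of 18 rest cells. The correlation of Ptbp1 with that pair was 0.20 in mouse 1 and -0.67 in mouse 2. R3hdm4 was present in 11 of 33 and 6 of 18, with correlations of 0.01 and 0.15. Med16 was present in 3 and 3, with correlations of -0.08 and 0.04. Beside Ctsg, Mcpt8 was present in 12 of 33 and 6 of 18, with a correlation to Ctsg of 0.42 and 0.31, while Mcpt4, Mcpt9, Gzmd, Gzme and Gzmg were at 0 TPM. Of 10 mast cell and basophil markers, 5 reached 100 TPM in some rest cell of each mouse, with sums of 0 to 7403 and 0.24 to 7283 TPM, and Prss34, Cma1, Tpsab1, Fcer1a and Ms4a2 did not. Their part in the Mcpt8 values was not tested.

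Nkg7, Cst7 and Srgn are also genes of killer lymphocytes, and the markers of those cells were near 0. The sum of 14 T and NK cell markers had a median of 0 TPM in the rest cells of both mice, and at most 651 and 28 TPM. Gzmb and Klrb1c were the only 2 of these markers that reached 100 TPM in a rest cell, in mouse 1. Nkg7 was at 100 TPM or more in 47 of the 51 rest cells.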

How the data were processed

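The report uses 96 single-cell RNA-seq libraries, 1 GEO sample a cell, made with a Fluidigm C1 chip, SMARTer cDNA and Nextera XT per the labels' protocols, in 2 capture rounds of 52 and 56 cells. The main values are TPM, deposited by the authors in a table whose file name credits RSEM. A second deposited table gives RPKM values for 9310 Ensembl identifiers, all 10 members among them; 74.4% of the members' RPKM values lay at their gene's lowest value, so it served as an alternative only. TopHat2, RSEM, Bowtie2, mm10 and mm9 are named in the submitters' processing notes; versions and which build made which table are not given in the sources used here, and read depth is unknown.

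Means of log2(TPM + 1) were compared, which understates change in low genes; 8008 genes, those reaching 1 TPM in 5 cells or more of both mice, gave the background, and a difference of 1 was counted. Gene coordinates are GENCODE M21. Promoters are from RefSeq. The code was checked on simulated data, and run in Python 3.11.15, pandas 2.3.3, scipy 1.17.1. No column lacked a sample (0) and no cells were identical (0). The members, the states and the gene lists were chosen with earlier results of these data known. Named genes are the members, the list members most abundant or most different by Mpo, the 12 most and 6 least like Mpo, and 3 neighbours on each side; some list members are not reported here by name. No reads were tested and no model was fitted across genes, since each group is 1 mouse.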

Additional observations from a re-analysis of the deposited data

How the results depend on the processing

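No paired analysis was possible because each mouse is 1 animal and the cell numbers pair nothing. Over all alternatives, 43 values of the main results stayed within 1.5 times of, or in the interval of, the value reported, and 10 did not. The median mouse difference of the set was 1.35 over rest cells only and -0.0634 in the RPKM table, so its direction turned with the cells used. The median class II-high minus rest difference was -3.94 in mouse 1 with a pseudocount of 10. It was -1.77 in mouse 1 and -1.62 in mouse 2 after a linear fit on detected genes, which also removes what the state shares with them, and -0.50 and -0.45 in the RPKM table, where most values lie at a floor. The median share of cells over the 10 genes, 50% in mouse 1 and 36.5% in mouse 2 at 100 TPM, was 73.96% and 68.75% at 1 TPM, a level that the low values following the cell numbering reach, and 23.96% in mouse 1 at 1000 TPM. Lower and higher thresholds for H2-Aa left the class II-high medians unchanged. Those for S100a8 left the neutrophil granule-high median of mouse 2 unchanged, so both test little. Each threshold was tried on its own state only. At 100 TPM, cell 73 (H2-Aa at 115 TPM) and cell 68 (S100a8 at 133 TPM) would have both state genes and leave their states. Without cell 73 the neutrophil granule-high median was -2.92. The mean correlation of the 4 core genes ran from 0.56 to 0.77 in mouse 1 and 0.63 to 0.77 in mouse 2 over all alternatives. The share of serine protease cells with Mpo ran from 80% to 84.8% and 76.2% to 86.2%. Leaving out cells 67, 68 and 73 (the most detected genes, Mpo beside class II genes, and S100a8 beside class II genes) or cell 73 alone, requiring Ltf and setting low values to 0 were chosen after seeing the data. For single genes, 38 of 80 alternative shares fell outside their interval. Read depth is unknown, so a gene under 100 TPM is not shown to be absent.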

Other observations

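Neutrophil granule-high cells of mouse 2 had higher transcript levels of NADPH oxidase subunit genes than rest cells. Mpo itself was present in 4 of these 10 cells, and neither the oxidase protein nor its activity was measured. All 5 NADPH oxidase genes that passed the filter were higher than in rest cells by 1 or more, beside 7.33% of all genes, with a median difference of 3.22. Cyba, a membrane subunit of the oxidase, averaged 1238 against 374 TPM, and Ncf1, a cytosolic subunit, 364 against 51.3 TPM. Cybb, the catalytic subunit, did not pass the filter and averaged 1254 against 40.7 TPM. Alas1, of haem synthesis, differed by 1.48. Of 10 folding genes, 7 were lower, beside 47% of all genes, and 1, P4hb, was higher, with Calr at -5.67.

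In class II-high cells, 3 of 7 genes for cathepsins and their activation were higher than in rest cells of mouse 1 and 2 in mouse 2, beside 8.57% and 6.62% of all genes, and 2 were lower in each mouse (Ctsd and Ctsl), beside 43.9% and 51.7%. Ctss, cathepsin S of antigen presentation, averaged 1204 against 78.6 TPM in rest cells of mouse 1 and 1808 against 190 TPM in mouse 2. Ctsh differed by 5.36 and 3.46. Of 6 protease inhibitor genes, 5 and 3 were lower and 1 was higher. The higher one, Cst3 (cystatin C), averaged 56353 against 675 TPM in mouse 1 and 55001 against 1000 TPM in mouse 2.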
